A study of Mus musculus with 4 samples.

Results

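The genes described are Trp53, which encodes the tumour suppressor p53, and 9 genes that p53 is known to activate: Mdm2, Ccng1, Bax, Bbc3, Pmaip1, Perp, Zmat3, Phlda3 and Aen. They were chosen by name, with earlier results of these data known, and each of the 10 matched 1 feature among the 34315 in the deposited table. The RNA sequenced was polyA-selected and came from haematopoietic stem cells (HSCs), the marrow cells from which all blood lineages are renewed, freshly sorted from C57BL/6 mice as side population cells with the KSL-CD150+ surface phenotype. The wild-type group consists of 4 libraries that the labels call technical replicates of biological replicate 1, so the spread between them may be technical. The series' own design text mentions duplicates, and whether the libraries come from 1 or more biological samples is not settled by the labels. The other group is HSCs labelled as Dnmt3a knockout, Dnmt3a being a de novo DNA methyltransferase, and it enters only as the mean count over 4 libraries in the authors' deposited table, together with the authors' log2 fold change and adjusted p-value. The deletion scheme and the age of the mice are not stated in the labels.

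p53 is a transcription factor that cells keep at low levels until DNA damage or other stress blocks its destruction. It then binds DNA as a tetramer and switches on genes for cell cycle arrest, repair or death, among them Mdm2, whose product marks p53 for destruction and so closes a feedback loop. In HSCs p53 is known to favour quiescence and to drive cell death after irradiation. Much of its regulation acts on the protein, which RNA counts do not measure.

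p53 acts through a known binding sequence, so the promoter letters of these genes are given first. The p53 half-site consensus has 10 positions, namely 3 purines, a C, 2 positions of A or T, a G and 3 pyrimidines, and it reads the same on both strands. Windows from 250 bases before to 50 bases after RefSeq transcript starts (GRCm38.p6) were at hand for 7 of the 10 genes, in 10 windows. Perp, Pmaip1 and Zmat3 had none. An exact half-site lay in a window of 5 of the other 7 genes, Trp53, Mdm2, Ccng1, Bax and Aen. Of all 27025 genes with a window, 9.55% had an exact half-site. Capitals mark exact half-sites, and also pairs of half-sites, with a spacer of up to 13 bases, that depart from the consensus at 3 or fewer of their 20 positions.
Ccng1, chr11:40755442-40755501, minus strand: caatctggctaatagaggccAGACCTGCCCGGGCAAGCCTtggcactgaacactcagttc
Bax, chr7:45467070-45467130, minus strand: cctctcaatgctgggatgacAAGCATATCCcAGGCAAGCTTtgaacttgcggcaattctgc
Aen, chr7:78895917-78895983, plus strand: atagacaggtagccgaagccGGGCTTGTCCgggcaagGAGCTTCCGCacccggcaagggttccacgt
Mdm2, chr10:117710903-117710964, minus strand: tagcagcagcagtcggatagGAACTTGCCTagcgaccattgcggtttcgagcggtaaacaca
Trp53, chr11:69580264-69580323, plus strand: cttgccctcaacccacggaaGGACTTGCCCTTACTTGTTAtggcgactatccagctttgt
Bbc3, chr7:16309466-16309525, plus strand: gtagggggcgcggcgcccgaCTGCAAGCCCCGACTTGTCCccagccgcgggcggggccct

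The Ccng1 pair has adjoining half-sites with 1 mismatch in all, beginning 195 bases before the start, and the Bax pair has 1 mismatch and a spacer of 1 base, beginning 212 bases before the start. Pairs with 1 or fewer mismatches were found in 1.09% of all 32851 windows. The Aen pair has 2 mismatches and a spacer of 7 bases, a level of match that 10.1% of windows reached. Bbc3 had no exact half-site in its 3 windows. In 1 of them, not shown above, the best pair had 3 mismatches and a spacer of 2 bases. Another held adjoining half-sites with 3 mismatches, 97 bases before the start. The Trp53 pair also adjoins and has 3 mismatches. Pairs with 3 or fewer mismatches at any of these spacings were found in 45.1% of windows, and adjoining ones as the best pair in 4.92%. Mdm2 had an exact half-site 186 bases before the start whose best partner has 4 mismatches, and 89.3% of windows held a pair with 4 or fewer. Phlda3 had no pair with fewer than 4 mismatches. These matches describe letters in the windows and do not show binding.

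Library totals were 40709659 to 47408552 counts in wild type, and the knockout means summed to 41930967. Wild-type libraries 1 and 2 differed from each other by more than counting noise, and so did libraries 3 and 4, but far less than libraries of different pairs. The median chi-square over features was 0.763 and 0.682 within the pairs, where counting noise gives 0.455, and 11.99 to 12.95 between libraries of different pairs. Each pair was therefore averaged and counted as 1 sample. All 9 stem cell markers examined were detected, summing to 157621 and 192159 normalised counts in the pairs and 178125 in the knockout mean. Of these, Hlf, Meis1 and Kit lay below both pairs in the knockout mean and the other 6 above both. Megakaryocyte markers summed to 23926 and 21164 in the pairs and 5160 in the knockout mean, with 5 of 5 below both pairs, and 5 of 6 macrophage markers lay below both, with sums of 1694, 964 and 929. T cell markers summed to 379 and 457 in the pairs and 744 in the knockout mean, nearly all from Lck at 378, 428 and 742, while Cd3e was at 0 in the knockout mean and Cd8a in libraries 1 and 2. B cell markers summed to 84.6, 37.4 and 51.4, with Ms4a1 and Pax5 at 0 and Cd79a above both pairs in the knockout mean. The part of these cell types in the values of the p53 genes was not tested. The pairs averaged 8399 and 5304 normalised counts of Dnmt3a and the knockout mean was 8424, which does not check the label where transcripts of the deleted allele are still made.

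Several p53 target genes stood higher in the knockout arm while Trp53 itself did not. In the authors' deposited table, with 0.05 as the threshold on the adjusted p, Perp alone of the 10 genes was called higher and 0 were called lower. The same threshold called 3.15% of 21778 tested features higher and 3.7% lower. The knockout mean was at least 2-fold above both wild-type pairs for 5 genes, Mdm2, Bbc3, Pmaip1, Perp and Zmat3, and at least 2-fold below both for 0. Over the 17685 features whose mean reached 10 normalised counts, 12.9% were at least 2-fold above both pairs and 15.6% at least 2-fold below both. When libraries were scaled to their totals, Mdm2 and Zmat3 were no longer 2-fold above both pairs, which left 3 genes. That scale shifted the median of all features by -0.33. The share of all features 2-fold above both pairs was not computed on it. The median log2 fold change of the 10 genes, computed from the normalised counts, was 0.88, and that of the 17685 features was -0.04. Since the 10 genes were chosen with earlier results of these data known, these values are a description only. All 10 genes passed the minimum of 10 normalised counts. The knockout libraries are seen only as a mean, so their spread was not examined, and the genes not called here are given as values and not as changes.

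**Figure D1:**
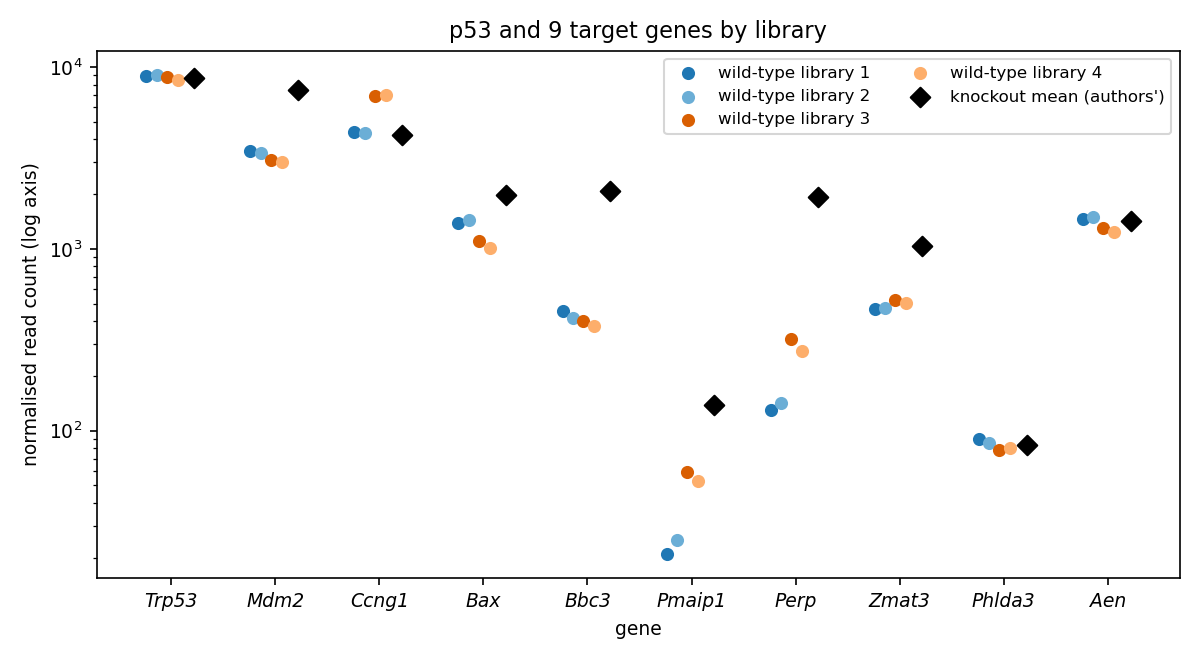
Normalised read counts (log axis) of the 10 genes in wild-type libraries 1 to 4 (circles) and in the authors' knockout mean (black diamonds, no error because only the mean was used). Trp53 lay between 8474 and 9067 in every wild-type library with the knockout mean at 8696, whereas the diamonds of Mdm2, Bax, Bbc3, Pmaip1, Perp and Zmat3 stand above all their circles.

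Trp53 (chromosome 11, 69393861 to 69405375, mm9) had 8961, 9067, 8812 and 8474 normalised counts in wild-type libraries 1 to 4 and 8696 in the knockout mean. The knockout mean lay between the wild-type pairs, which averaged 9014 and 8643. The authors' deposited table gives a log2 fold change of -0.02 (adjusted p 1). The counting interval of the ratio of knockout to wild type, an exact 95% interval that covers counting error only, was 0.970 to 1.002. Scaled to library totals, the log2 fold change was -0.36, in a setting that shifted the median of all features by -0.33.

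Mdm2 (chromosome 10, 117125961 to 117147772), the ubiquitin ligase that restrains p53, stood at 3445, 3345, 3070 and 3019 normalised counts in libraries 1 to 4 and at 7457 in the knockout mean. The 4 wild-type libraries lay close together, and the knockout mean was 2.20-fold the first pair and 2.45-fold the second. The authors' deposited table gives a log2 fold change of 1.21 (adjusted p 0.52), which is no call. The smallest fold that this table called higher over all features was 5.69.

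Ccng1 (chromosome 11, 40562054 to 40568788) encodes cyclin G1, which brings a phosphatase to Mdm2. Libraries 1 and 2 had 4415 and 4344 normalised counts of it, libraries 3 and 4 had 6928 and 7037, and the knockout mean was 4208. The wild-type pairs were 1.59-fold apart, and the knockout mean lay just below the lower pair, at 0.961 of it, and at 0.603 of the higher pair. Its log2 fold change of -0.43 (adjusted p 0.914) was the lowest of the 10 in the authors' deposited table. Among the 7 genes with a promoter window, Ccng1 and Bax had the half-site pairs closest to the consensus. Perp, Pmaip1 and Zmat3 had no window, and the part of these matches in the fold changes was not tested. The count of Ccng1 is uncertain because the antisense feature HAG_004755 overlaps it, and reads without strand cannot be divided between them.

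The 3 highest log2 fold changes of the 10 belonged to the cell death genes Perp, Bbc3 and Pmaip1. Against libraries 3 and 4 alone, Pmaip1 at 2.49-fold and Mdm2 at 2.45-fold were nearly equal, so their order there is not set. Bax, Bbc3, Pmaip1 and Perp all stood above both wild-type pairs in the knockout mean, and Aen did not. Over all features whose mean reached 10, 40.9% of knockout means lay above both pairs and 43% below both.

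Perp (chromosome 10, 18564877 to 18576878) encodes a small membrane protein that takes part in p53-dependent cell death and in desmosomes. Libraries 1 and 2 had 129 and 141 normalised counts of it, libraries 3 and 4 had 321 and 274, and the knockout mean was 1940. The pairs themselves were 2.20-fold apart, and the knockout mean was 14.3-fold the lower pair and 6.52-fold the higher. Perp rose 8.90-fold in the authors' deposited table (log2 fold change 3.15, adjusted p 0.00982).

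Bbc3 (chromosome 7, 16894932 to 16903683) encodes PUMA, a protein that frees Bax and its relatives by binding their inhibitors. Its wild-type counts were even, at 454, 419, 404 and 378 normalised counts in libraries 1 to 4, against 2089 in the knockout mean. The knockout mean was 4.78-fold the first pair and 5.35-fold the second, a larger gap than the 1.12-fold between the pairs. The authors' deposited table gives a log2 fold change of 2.33 (adjusted p 0.0749), so Bbc3 was not called at 0.05 and would be at 0.1, where 4.25% of tested features were called higher.

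Pmaip1 (chromosome 18, 66618258 to 66625212) encodes NOXA, a protein of the same kind as PUMA. It had the lowest wild-type counts of the 10 genes, and depth limits it most, with 20, 24, 62 and 56 reads in libraries 1 to 4. These are 21.0, 25.1, 59.1 and 52.6 normalised counts, against 139 in the knockout mean. The knockout mean was 6.03-fold the first pair but 2.49-fold the second, since the pairs were 2.42-fold apart. It was not called (log2 fold change 1.79, adjusted p 0.243 in the authors' deposited table), and the counting interval of its overall ratio of 3.52 was 2.87 to 4.16.

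Bax (chromosome 7, 52717065 to 52722268) encodes a protein that opens the outer mitochondrial membrane. It had 1383, 1440, 1109 and 1005 normalised counts in libraries 1 to 4 and 1988 in the knockout mean. The knockout mean was 1.41-fold the higher pair and 1.88-fold the lower, while the pairs were 1.34-fold apart. The authors' deposited table lists a log2 fold change of 0.69 (adjusted p 0.812).

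Aen (chromosome 7, 86040813 to 86053719), a nuclease gene whose product cuts DNA during apoptosis, had 1462, 1494, 1295 and 1230 normalised counts in libraries 1 to 4 and 1418 in the knockout mean. The knockout mean lay between the pairs, and the authors' deposited table lists a log2 fold change of 0.05 (adjusted p 1). With library totals as the scale the sign turned, to -0.29.

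Of the genes outside the death group, Zmat3 (chromosome 3, 32233716 to 32264587), which encodes an RNA-binding zinc finger protein, had 468, 470, 523 and 506 normalised counts in libraries 1 to 4 and 1042 in the knockout mean. The wild-type libraries lay close together, and the knockout mean was 2.22-fold the first pair and 2.03-fold the second. Zmat3 was not called, the authors' deposited table giving a log2 fold change of 1.08 (adjusted p 0.6). The end of its locus overlaps 4930429B21Rik on the other strand. Phlda3 (chromosome 1, 137662662 to 137665711), whose product competes with the kinase Akt for membrane lipids, had 90.5, 85.8, 78.2 and 80.8 normalised counts in libraries 1 to 4 and 83.7 in the knockout mean. The knockout mean again fell between the pairs, and the authors' deposited table gives a log2 fold change of 0.00 (adjusted p 1). The counting interval of its ratio was 0.847 to 1.18, and on the scale of library totals its log2 fold change was -0.34.

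**Figure D2:**
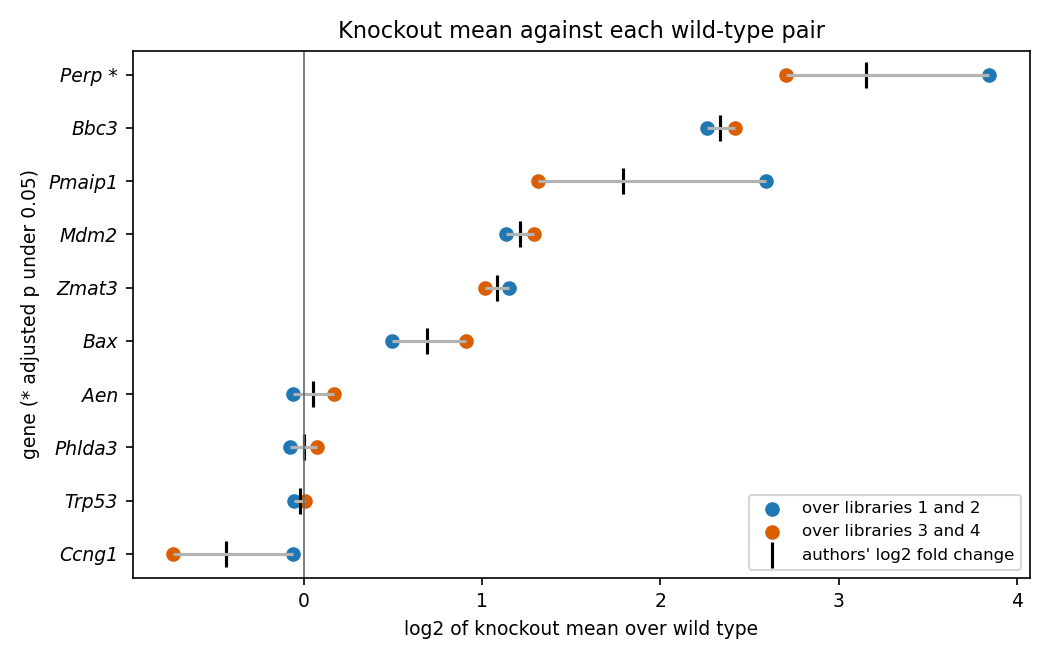
Log2 of the knockout mean over wild-type libraries 1 and 2 (blue) and over libraries 3 and 4 (orange) for each gene, with the log2 fold change of the authors' deposited table as a black tick and a grey line joining the pairs. Perp, the only gene of the 10 with an adjusted p under 0.05, runs from 6.52-fold to 14.3-fold, while Trp53, Phlda3 and Aen straddle 0.

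Some of the genes differed between the wild-type pairs. Of the 10 genes, Perp and Pmaip1 were at least 2-fold higher in libraries 3 and 4 and 0 were at least 2-fold higher in libraries 1 and 2, where 3.57% and 9.8% of all features whose mean reached 10 did so. Immediate early genes, which handling stress and signals induce, moved with this split: the 7 listed had a sum of 8685 normalised counts in the first pair, 197864 in the second and 65032 in the knockout mean, and 7 of 7 were higher in libraries 3 and 4. Neutrophil markers ran the other way, with 48318, 9996 and 29317, and 0 of 7 higher in libraries 3 and 4. In the knockout mean Perp stood at 6.52-fold the second pair, and the immediate early sum lay between the pairs. Of the 7 immediate early genes, Fosb lay above both pairs, Junb below both and the others between. The part of the immediate early genes or of neutrophil cells in the levels of Perp, Pmaip1 and Ccng1 was not tested.

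Per kb of exon, a scale on which genes can be set beside each other, Trp53 was the most abundant of the 10 in wild type, at 4854 and 4654 normalised counts per kb in the pairs. Ccng1 followed at 1258 and 2006, Bax at 1636 and 1225 and Mdm2 at 1126 and 1010. The ranges of Ccng1 and Bax overlapped, so their order is not set. Aen stood at 574 and 490 normalised counts per kb, Bbc3 at 221 and 198 and Perp at 71.3 and 157. Zmat3 at 60.3 and 66.2 stood just above Phlda3 at 60.2 and 54.3, ranges that nearly met, and Pmaip1 was lowest at 8.71 and 21.1. In the knockout mean Trp53 was still highest, at 4683 per kb, but Mdm2 stood second at 2473, and Bbc3 at 1059 and Perp at 1023 stood above Aen at 551.

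**Figure D3:**
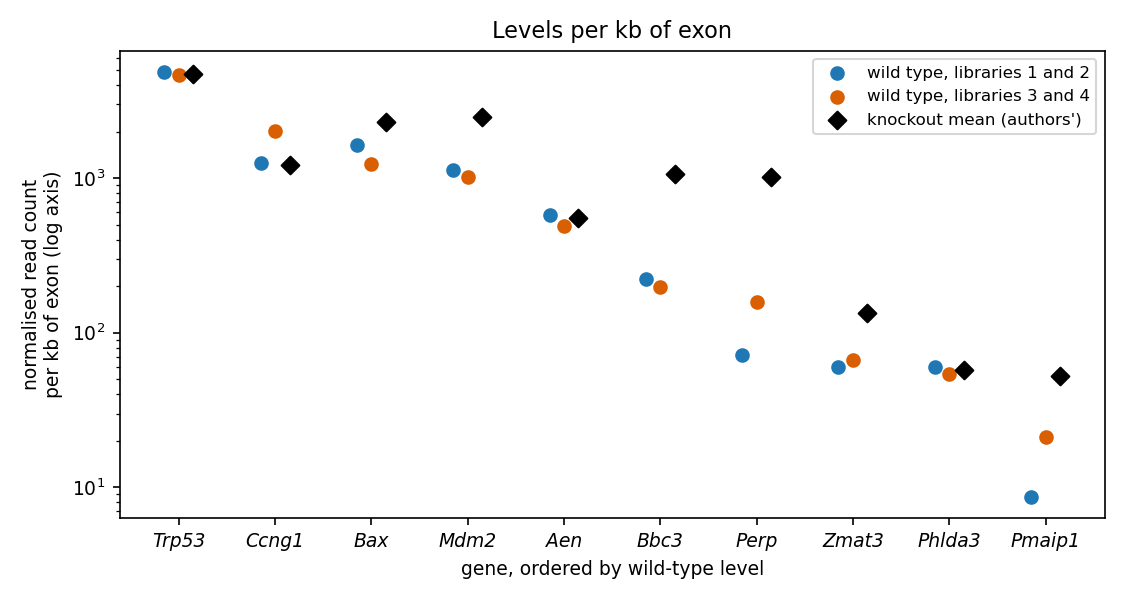
Normalised read count per kb of exon (log axis) for the 10 genes, ordered by the wild-type level, in libraries 1 and 2 (blue), libraries 3 and 4 (orange) and the authors' knockout mean (black diamonds). Wild-type levels run from 4854 for Trp53 to 8.71 for Pmaip1, and Bbc3 and Perp in the knockout mean lie near 1059 and 1023, close to wild-type Mdm2.

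The flat profile of Trp53 was shared with many genes. Over the 3 values of the wild-type pairs and the knockout mean, the nearest of 10471 named genes whose mean reached 100 were Ccdc28b, Lsm14b, Tsen34, Rpsa-ps10 and Nckipsd, at Euclidean distances of 0.00648 to 0.0147 on the centred log2 scale, and 256 genes lay within 0.1. With 3 values such likeness is a description only.

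The wider p53 network was examined with a list of 71 names, of which 68 matched a feature and 64 had a mean of at least 10 normalised counts. By the authors' deposited table, 5 of these 64 genes rose and 2 fell with an adjusted p under 0.05, beside 3.15% and 3.7% of all tested features, and 57 were not called. Their median log2 fold change, computed from the normalised counts, was 0.31, beside -0.04 over the 17685 features with such a mean. Of the 64, 39 were above 0. Scaled to library totals, 28 were above 0 and the median was -0.034, beside -0.38 over those features. The share of all features above 0 was not computed. The 4 genes under the minimum were Cdkn2a, Trp63, Trp73 and Igfbp3.

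The rises lay in the groups of cell cycle arrest and of secreted and surface proteins. Among 10 arrest genes, 2 rose and 1 fell. Of the same 10, 4 were at least 2-fold higher in libraries 3 and 4 than in libraries 1 and 2. Among all features whose mean reached 10, 3.57% were so. The sum of the immediate early genes was also higher in libraries 3 and 4, and the part of those genes was not tested. Cdkn1a, the cyclin kinase inhibitor p21 that carries much of the arrest by p53, stood at 158, 213, 885 and 858 normalised counts in libraries 1 to 4 and at 7573 in the knockout mean. The pairs were 4.71-fold apart, and the knockout mean was 8.69-fold the higher pair. Cdkn1a rose 14.3-fold in the authors' deposited table (adjusted p 0.00133). Plk3, a stress-activated kinase, was even in wild type at 186 to 226 normalised counts and reached 1765 in the knockout mean, an 8.74-fold rise (adjusted p 0.0106) in the authors' deposited table, although it overlaps Tctex1d4. Plk2, a related kinase, whose pairs were 3.46-fold apart, stood at a log2 fold change of 2.43 and was not called (adjusted p 0.0599), and the growth arrest gene Gadd45a, which overlaps E230016M11Rik, stood at 1.36 (0.44) in the authors' deposited table. The widest gap between the pairs in the arrest group was that of the antiproliferative gene Btg2, named after its values were seen, at 535 and 11498 normalised counts with the knockout mean at 5272. Btg2 overlaps HAG_000769 on the other strand and was not called.

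Gtse1, a microtubule-binding protein of dividing cells that moves p53 out of the nucleus, fell to 0.111 of wild type in the authors' deposited table (adjusted p 0.00966). Its values were 938, 1033, 892 and 840 normalised counts in libraries 1 to 4 and 102 in the knockout mean. Proliferation markers moved with it: the 6 found of 7 summed to 94911 and 59666 normalised counts in the pairs and 15841 in the knockout mean, and 6 of 6 lay below both pairs. Their part in the level of Gtse1 was not tested, and in bulk RNA fewer cells of a type and less RNA per cell cannot be told apart. Psrc1, another gene of the spindle, was not called and stood at -1.83 on the log2 scale of the authors' deposited table (adjusted p 0.215).

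Among 8 measured genes for secreted and surface proteins, 3 rose and 0 fell. Thbs1, the matrix protein thrombospondin 1, went from 99.9, 96.3, 270.0 and 278 normalised counts in libraries 1 to 4 to 9076 in the knockout mean, a 48.3-fold rise in the authors' deposited table (adjusted p 3.35e-06). The cytokine Lif rose 16.1-fold, from 24.1 and 75.7 normalised counts in the pairs to 830 in the knockout mean (adjusted p 0.000837 in the authors' deposited table). Gdf15, a stress-induced hormone of the TGF-beta family, rose 7.51-fold from 26.2 and 107 to 513 (adjusted p 0.0193 in the authors' deposited table). For Thbs1, Lif and Gdf15 the second pair was above the first, as the immediate early genes were, and the part of those genes was not tested. Cd82, which overlaps Gm10804, Ephx1 and Ak1, also in this group, had log2 fold changes of 0.49, 0.31 and 0.58 in the authors' deposited table and were not called.

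**Figure D4:**
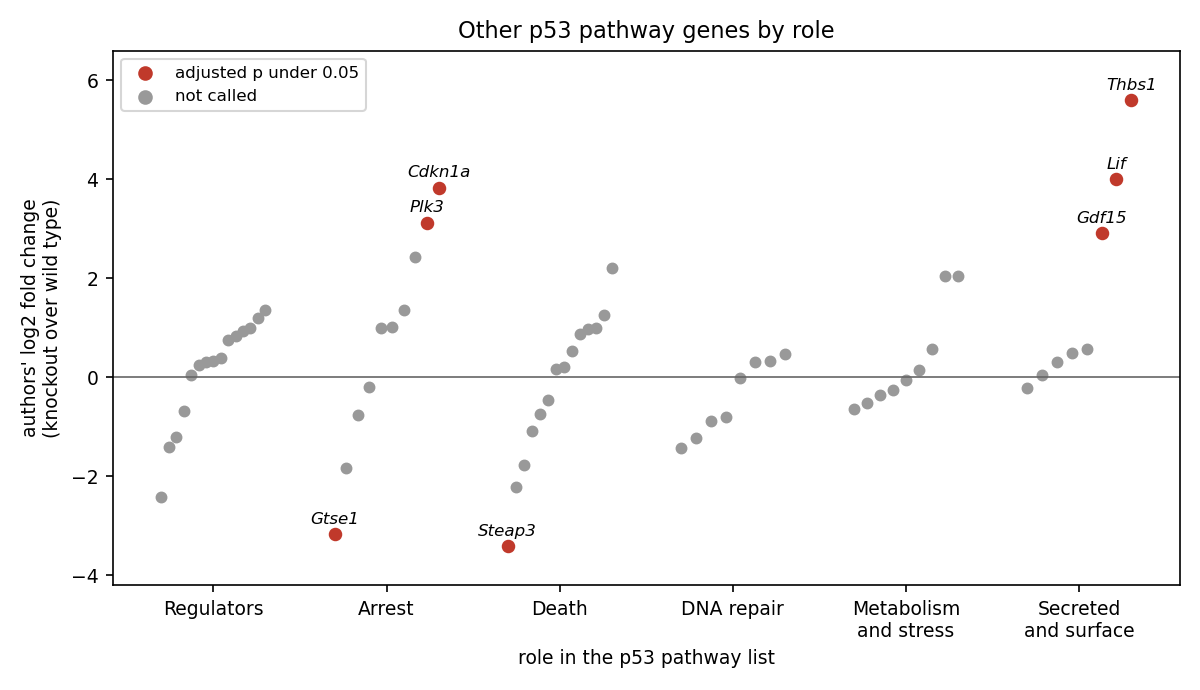
Log2 fold change (knockout over wild type) in the authors' deposited table for the 64 measured genes of the wider p53 list, by role, each point being 1 gene, ordered by value within its role. Red points have an adjusted p under 0.05: 5 rises, in the arrest and the secreted and surface groups, and the 2 falls, Gtse1 and Steap3.

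Among 14 further genes of cell death, 0 rose and 1 fell. Steap3, an iron reductase of endosomes that red cell precursors use and that p53 induces, had 1156, 1167, 931 and 887 normalised counts in libraries 1 to 4 and 96.2 in the knockout mean, 0.0938 of wild type in the authors' deposited table (adjusted p 0.00477). Erythroid markers moved with it, with 6 of 6 below both pairs in the knockout mean and sums of 6275, 4272 and 436 normalised counts, and their part was not tested. Neither Trp53inp1, a nuclear stress protein, nor Bid, which links death receptors to Bax, was called: their log2 fold changes were 2.21 (adjusted p 0.0985) and -2.22 (0.0968) in the authors' deposited table. Lrdd, the PIDD adaptor, was at 1551 and 517 normalised counts in the pairs and 302 in the knockout mean, and was not called.

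Regulators of p53, DNA repair genes and genes of metabolism included no calls in the authors' deposited table. Among 15 measured regulators, the checkpoint kinase genes Chek1, at -2.41 (adjusted p 0.063), and Chek2, at -1.40 (0.415), and the p53 cofactor gene Ppp1r13b, at 1.37 (0.433), had the largest differences in the authors' deposited table. Among 8 DNA repair genes, the damage sensor Xpc stood at -1.42, the ribonucleotide reductase subunit Rrm2b at -1.22 and the translesion polymerase Polh at -0.88 in the authors' deposited table (adjusted p 0.403, 0.519 and 0.706). Of 9 metabolism and stress genes, Sesn2, an inhibitor of mTOR signalling, had 681 and 809 normalised counts in the pairs and 3091 in the knockout mean, and the authors' deposited table gives a log2 fold change of 2.05 (adjusted p 0.137). The glutaminase gene Gls2, which overlaps Spryd4, stood at 2.05 (adjusted p 0.148) and the kinase subunit Prkab1 at -0.63 (0.838) on the log2 scale of the authors' deposited table.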

How the data were processed

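RNA from sorted HSCs was polyA-selected and made into TruSeq libraries, per the labels' protocols. Read counts per feature were deposited by the authors for each library. Per the submitters' processing notes, mm9 was the build and DESeq a tool, with no role named. The aligner and counter are not given in the sources used. A length-scaled signal deposited by the authors equals the count per kb of exon over a constant of 50 and gave exon lengths only. The log2 fold change that the authors deposited is knockout over wild type, and the deposited p-value was read as adjusted.

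Of 30 columns, 8 of per-library values match no sample here and were left out. Size factors by median of ratios scaled the wild-type counts, and the knockout mean was shifted by 0.399 on the log2 scale, the median gap to the authors' fold changes over 11936 features (SD 0.00298). Own log2 fold changes add 1 normalised count. No test between genotypes was run. The size factors, the shift and the fold changes were tested on simulated counts with counting noise only and no split between pairs. The other steps were not simulated. Versions were Python 3.11.15, numpy 2.4.6, pandas 2.3.3, scipy 1.17.1 and edgeR 4.0.16, the last for TMM factors only. Depth limits low genes most, and PCR copies are not independent molecules, so intervals cover counting error only.

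The 10 genes and the gene lists were chosen with earlier results of these data known. Named genes of the wider list were all called members and, in each role, up to 3 others with a mean of at least 50 and the largest fold changes. The 5 genes nearest Trp53 were named by distance. Some items of the wider list are not reported here.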

Additional observations from a re-analysis of the deposited data

How the results depend on the processing

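Library totals in place of size factors shifted the median of all features by -0.33 and gave medians of 0.55 for the 10 genes and -0.034 for the wider list. Relative to all features these are 0.92 and 0.34, against 0.93 and 0.35 with size factors. Under library totals 3 of the 10 genes were at least 2-fold above both pairs, against 5. The share of all features on that scale was not computed. Against libraries 1 and 2 alone the wider list's median was 0.19. At an adjusted p under 0.1 the authors' deposited table called 2 of the 10 genes, against 1, all higher. It called 11 of the wider list, 7 higher and 4 lower, against 7, 5 higher and 2 lower. Of all tested features 4.25% were called higher at 0.1, against 3.15% at 0.05, and the share called lower at 0.1 was not computed. Of 90 single-gene values under the other settings, 83 moved by less than 1 SD between the pairs, and the other 7 all came from library totals. This SD is that of the fold changes against each pair alone, so values in those settings could hardly move by more. A wide SD also hides large moves: Ccng1 ran from -0.76 to -0.06 and counted as unmoved, with an SD of 0.48. The count of 83 is therefore no measure of robustness. Under TMM factors, without each library in turn and with no minimum, both medians moved by less than 1 SD between the pairs. The order per kb was the same for 8 of the 10 genes in libraries 1 and 2 alone. The log2 fold change of Perp ran from 2.70 to 3.83. Calls are the authors' and were not rerun, because the per-library knockout columns match no sample and were left out. The labels pair no wild-type library with a knockout library, so no paired analysis was run.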
